A study of Mus musculus with 12 samples.

Results

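Wnt signalling was followed through 42 named genes in the mouse line C3H10T1/2, an established embryonic line with properties of mesenchymal stem cells. They are 10 Wnt ligands, 11 receptors and co-receptors, 7 cytoplasmic transducers, 4 nuclear factors, 6 secreted inhibitors, and 4 targets or feedback genes. Each gene was read from 1 probe set of the array, the one with the highest mean over the 12 arrays. A probe set named by 1 gene symbol was at hand for 41 of the 42 genes, out of 18193 genes in all, and Tcf7 was not analysed here. Wisp1 is annotated as Ccn4.

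Total RNA was hybridised to 12 Affymetrix arrays, 3 for each of 4 groups. One group of cells was transfected with siRNA-140, a mimic of miR-140, and its control with siRNA-96. One group was transfected with an LNA oligonucleotide against miR-140 (anti-miR-140), and its control with an LNA oligonucleotide against miR-449 (anti-miR-449); LNA, or locked nucleic acid, has a modified sugar that strengthens pairing with the microRNA. No group was left untransfected, so each difference joins the effect of the miR-140 reagent with that of the control reagent. The labels do not say whether the replicates were separate cultures, so the spread behind each p-value may be technical.

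Wnt ligands are secreted proteins that bind Frizzled receptors together with the co-receptors Lrp5 and Lrp6. Without ligand, a complex of Axin, Apc and the kinase Gsk3b marks beta-catenin (Ctnnb1) for destruction. With ligand, Dishevelled proteins (Dvl) stop this, and beta-catenin joins Tcf and Lef factors on target genes such as Axin2 and Nkd1, which in turn dampen the signal. Sfrp and Wif1 proteins catch ligands outside the cell, and Dkk1 blocks the co-receptors. In mesenchymal progenitors the pathway is known for steering the choice between bone, cartilage and fat.

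The microRNAs that define the groups are shown with bases 2 to 8 from the 5′ end, the seed that pairs with target RNAs, in capitals, from RefSeq (GRCm38.p6). The labels do not say which arm was copied or blocked. The miR-140-5p arm was not among the sequences at hand, so its seed is neither shown nor compared. The 5p arms of miR-449a and miR-449c share 1 seed, which differs from those of miR-140-3p and miR-96-5p.
miR-140-3p: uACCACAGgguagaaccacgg
miR-96-5p: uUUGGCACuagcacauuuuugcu
miR-449a-5p: uGGCAGUGuauuguuagcuggu
miR-449c-5p: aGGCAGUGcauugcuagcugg

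The arrays carried a mesenchymal profile: the mean log2 level of 10 fibroblast and mesenchymal markers lay between 10.4 and 11.0 on the arrays. The lists for epithelium, endothelium, blood, fat and bone had means of at most 4.28, where the median probe set lay at 4.14. The list for muscle had means of 4.65 to 4.95 and that for cartilage 5.86 to 6.30. The cartilage list was mixed: over the 12 arrays Col2a1 had a mean of 12.1, Sox9 9.33, Col9a1 5.38 and Comp 4.32. Acan (3.68) and Matn1 (2.10) lay below the median probe set. Members of other lists also departed from them, among them Thy1 (mesenchymal, 3.48) and Epcam (epithelial, 6.22). Within the siRNA arrays, 2 stood apart from their labels. Over the 41 Wnt genes, the array nearest to siRNA-140 replicate 3 was siRNA-96 replicate 2, with a mean absolute log2 difference of 0.111. The array nearest to siRNA-96 replicate 1 was siRNA-140 replicate 1, with a mean absolute log2 difference of 0.189. An interferon response list (8 of 10 genes measured) moved in the same way. Its mean log2 level by replicate was 4.15, 4.30 and 6.47 for siRNA-140, against 4.43, 7.70 and 8.24 for siRNA-96. It lay between 3.57 and 4.14 in the 6 anti-miR arrays. The 18S ribosomal RNA controls of siRNA-96 replicates 1 and 3 read 10.5 and 7.86, and those of the remaining siRNA arrays lay between 5.40 and 6.73. On the anti-miR side anti-miR-449 replicate 1 read 10.2, above 5.92 to 6.75 in the other 5 arrays. The siRNA counts and the called members are therefore given with and without these 2 arrays, the third siRNA-140 and the first siRNA-96 replicate.

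With all arrays as labelled, no Wnt gene passed the test in the comparison of siRNA-140 with siRNA-96. limma called 0 of 41 at an adjusted p under 0.05, over a background of 0% of genes. At an unadjusted p under 0.05 it called 0 of 41, against 1.98% of all genes. The log2 differences ran from -0.37 (Gsk3b) to 0.24 (Lrp5) with a median of -0.04, against a median of 0.03 over all genes. In sign, 25 of the 41 were lower with siRNA-140, where 42.5% of all genes were lower.

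The members with the smallest p on the lower side were Axin2, Gsk3b and Dkk2. Axin2, the feedback gene most often used to read beta-catenin activity, had log2 levels of 4.16, 3.77 and 3.93 in the siRNA-140 arrays against 4.35, 4.05 and 4.20 in the siRNA-96 arrays. The groups overlapped, and the log2 difference was -0.25 ± 0.14 (SE; 95% interval -0.56 to 0.07, limma adjusted p = 0.997). The other Axin2 probe set, dimmer, gave -0.02. Dkk2, a modulator of the co-receptors, was dim on all arrays at 1.71 to 2.33 and differed by -0.20 ± 0.14. On the higher side they were Dvl1, Wnt10b and Wnt7b. Dvl1, a Dishevelled gene, had log2 levels of 8.37, 8.42 and 8.40 in the siRNA-140 arrays against 8.13, 8.29 and 8.21 in the siRNA-96 arrays. All siRNA-140 arrays were above all siRNA-96 arrays, and the log2 difference was 0.19 ± 0.10 (95% interval -0.05 to 0.42, limma adjusted p = 0.997). Its other probe set gave -0.02. Ror2, a receptor for Wnt5a, was the other member whose groups did not overlap in that direction, and is named here after its values were seen (0.09 ± 0.10, and 0.03 ± 0.11 in the 10-array fit). The count of 2 of 41 stands beside 3.31% of all genes, and 0 of 41 were fully apart on the lower side, beside 2.49%.

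**Figure D1:**
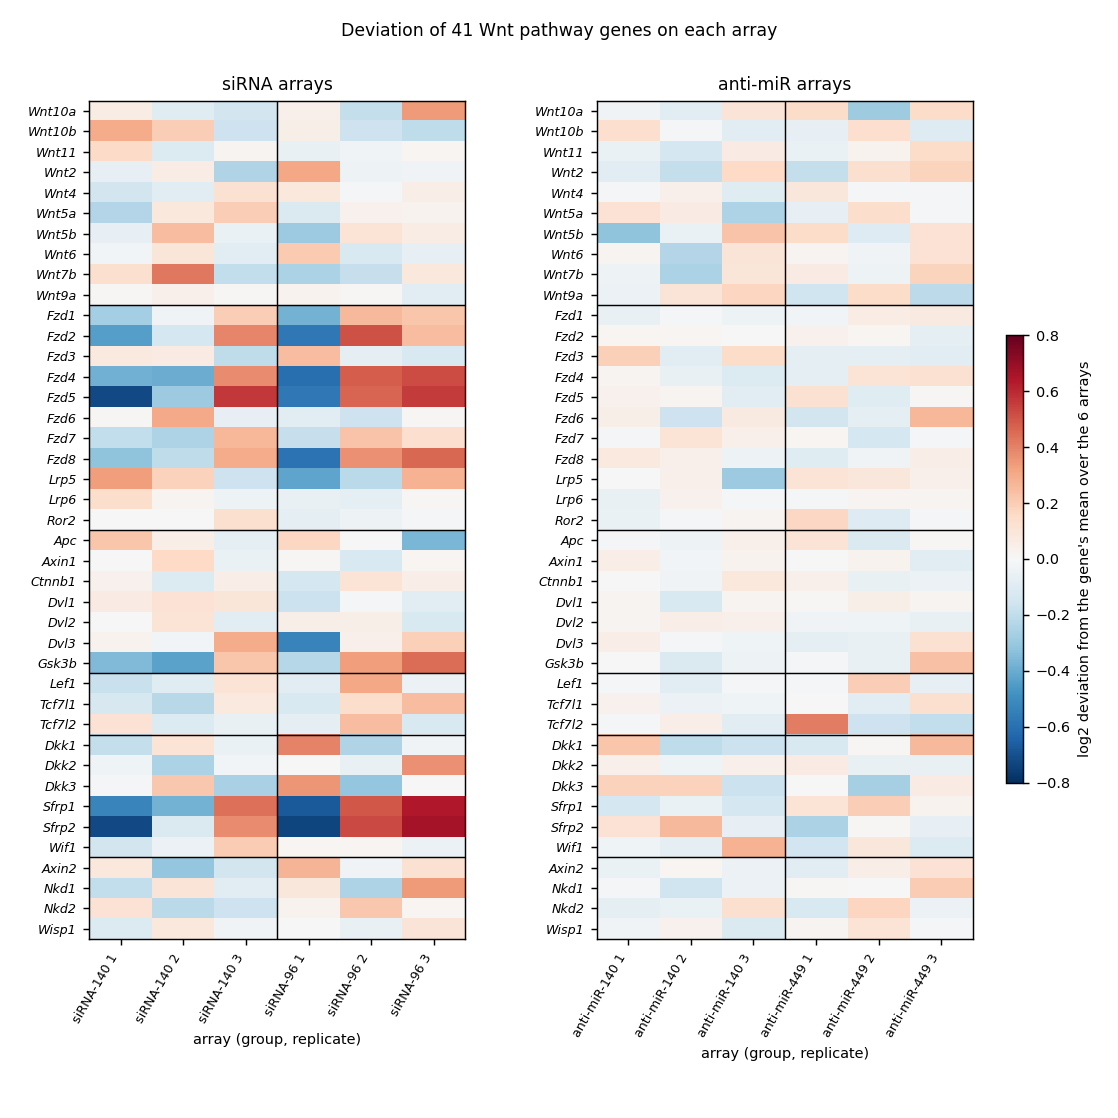
Colour gives the log2 deviation of each of the 41 genes (rows, by role: ligands, receptors, transducers, nuclear factors, secreted inhibitors, targets) from its mean over the 6 arrays of an experiment (columns). On the siRNA side Fzd2, Fzd4, Fzd5, Fzd8, Sfrp1 and Sfrp2 were low in siRNA-140 replicates 1 and 2 and siRNA-96 replicate 1 and high in the other 3 arrays; the anti-miR side shows smaller deviations for most genes.

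Most members varied more in the siRNA than in the anti-miR arrays. The median within-group SD of the 41 genes was 0.188 in the siRNA arrays and 0.101 in the anti-miR arrays, and 33 of the 41 varied more in the siRNA arrays. Within-group SDs in the siRNA arrays were 0.670 for Sfrp2, 0.643 for Fzd5, 0.629 for Sfrp1 and 0.551 for Fzd4.

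Among the receptors, Fzd4, Fzd5, Fzd8 and Fzd2 had the widest spread, followed by the co-receptor gene Lrp5 with a within-group SD of 0.312. Fzd4, a Frizzled receptor that also binds the non-Wnt ligand norrin, had log2 levels, by replicate, of 6.65, 6.64 and 7.41 for siRNA-140 against 6.43, 7.52 and 7.56 for siRNA-96. Fzd5 read 5.57, 6.0 and 6.86 in the siRNA-140 arrays against 5.72, 6.76 and 6.85 in the siRNA-96 arrays. In both genes siRNA-140 replicate 3 lay among the higher siRNA-96 arrays, and siRNA-96 replicate 1 lay with the lower siRNA-140 arrays. Fzd8 read 7.65, 7.77 and 8.27 in the siRNA-140 arrays against 7.38, 8.34 and 8.43 in the siRNA-96 arrays. Fzd2 read 9.51, 9.81 and 10.34 in the siRNA-140 arrays against 9.38, 10.46 and 10.20 in the siRNA-96 arrays. The same arrays were low and high, and with all 6 arrays the log2 differences were -0.27 ± 0.32 for Fzd4, -0.30 ± 0.37 for Fzd5, -0.15 ± 0.28 for Fzd8 and -0.13 ± 0.30 for Fzd2.

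The secreted inhibitors Sfrp1 and Sfrp2 share a cysteine-rich domain with the Frizzled receptors. Sfrp1 read 4.82, 4.97 and 5.79 in the siRNA-140 arrays against 4.68, 5.85 and 5.99 in the siRNA-96 arrays, a log2 difference of -0.31 ± 0.37. Sfrp2 read 3.25, 3.86 and 4.35 in the siRNA-140 arrays against 3.24, 4.5 and 4.64 in the siRNA-96 arrays, a log2 difference of -0.31 ± 0.39. The groups overlapped in both, again with siRNA-140 replicate 3 high and siRNA-96 replicate 1 low. Gsk3b, the kinase of the destruction complex, read 8.38, 8.31 and 8.96 in the siRNA-140 arrays against 8.51, 9.07 and 9.18 in the siRNA-96 arrays, with a log2 difference of -0.37 ± 0.22.

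Promoter windows from RefSeq (GRCm38.p6; 250 bases before to 50 after a start site) were at hand for 28 of the 42 genes. The Tcf and Lef core, searched as CTTTGAT and CTTTGAA on both strands, was in 3 of their 37 windows (1 each for Dkk1, Wnt11 and Wnt5b), or 8.11%, against 8.65% of all 32851 windows. It was in none of the windows of Fzd4, Fzd5, Gsk3b and Sfrp2, which says only that these letters are not there. The member windows held a median of 25 CG dinucleotides, against 7 over all windows. Those of 3 genes whose levels split the siRNA arrays together are printed 5′ to 3′ with each CG in capitals: 32 in Fzd4 (chr7:89404116-89404415, plus strand), 38 in Fzd5 (chr1:64737701-64738000, minus strand) and 22 in Sfrp2 (chr3:83766071-83766370, plus strand). The window of Gsk3b, whose levels split the same arrays, held 21 and is not printed.
Fzd4: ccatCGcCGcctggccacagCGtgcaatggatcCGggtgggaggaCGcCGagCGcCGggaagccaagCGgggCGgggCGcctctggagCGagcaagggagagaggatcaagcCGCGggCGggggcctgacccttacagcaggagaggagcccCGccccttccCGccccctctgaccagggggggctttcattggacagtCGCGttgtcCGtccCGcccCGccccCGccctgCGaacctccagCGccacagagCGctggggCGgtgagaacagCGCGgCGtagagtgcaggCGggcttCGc
Fzd5: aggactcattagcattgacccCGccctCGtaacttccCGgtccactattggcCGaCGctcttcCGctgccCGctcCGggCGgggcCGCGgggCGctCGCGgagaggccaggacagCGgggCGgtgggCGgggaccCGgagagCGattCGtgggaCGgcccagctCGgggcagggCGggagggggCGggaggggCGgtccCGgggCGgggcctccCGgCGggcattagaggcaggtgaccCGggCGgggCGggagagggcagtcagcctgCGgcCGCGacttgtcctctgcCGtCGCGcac
Sfrp2: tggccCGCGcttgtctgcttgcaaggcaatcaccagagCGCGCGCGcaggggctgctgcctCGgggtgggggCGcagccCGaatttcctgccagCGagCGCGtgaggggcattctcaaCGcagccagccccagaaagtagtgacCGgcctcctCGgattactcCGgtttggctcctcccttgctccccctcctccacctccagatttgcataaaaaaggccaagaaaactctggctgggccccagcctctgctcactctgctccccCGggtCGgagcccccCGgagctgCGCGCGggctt

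**Figure D2:**
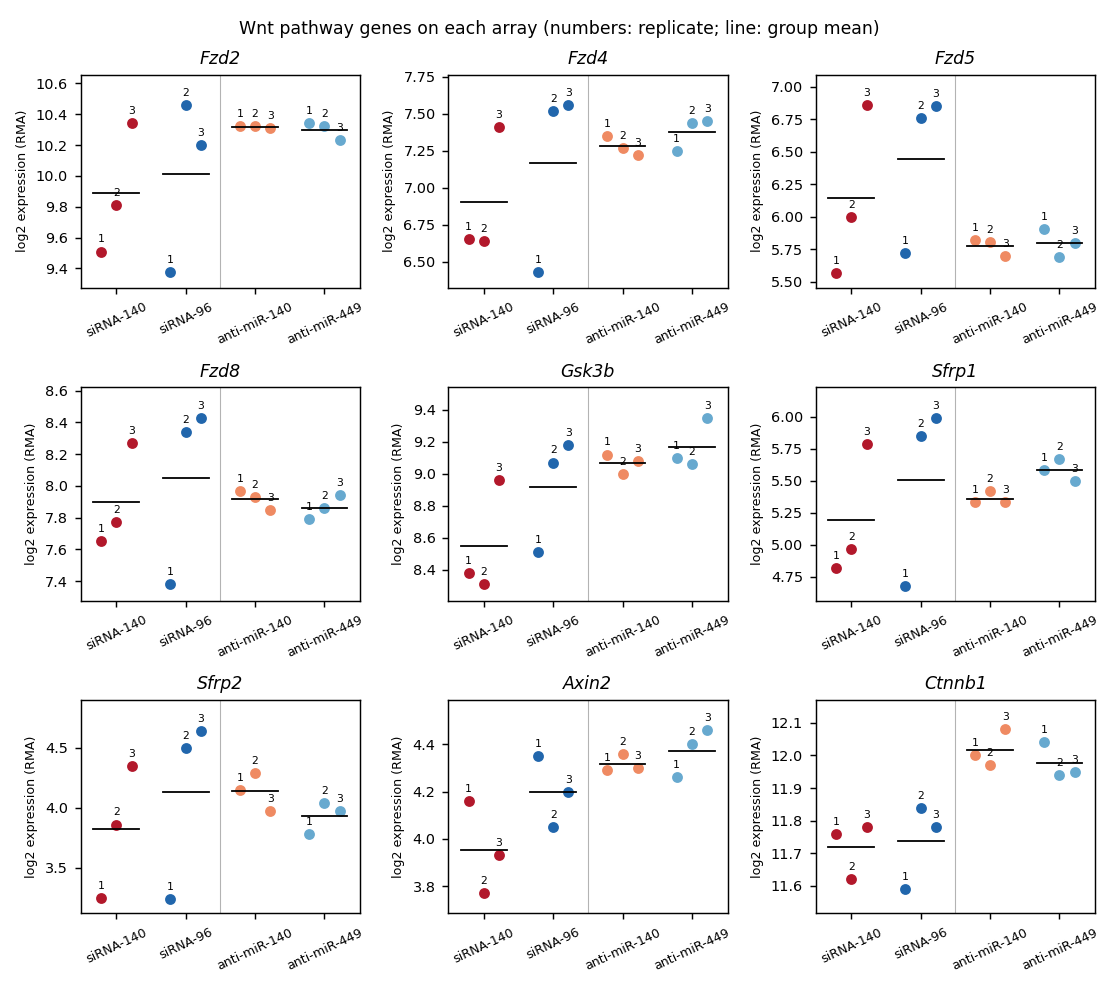
Each point is the log2 expression of 1 gene on 1 array, labelled with its replicate number, and lines are group means (n = 3). The siRNA and anti-miR arrays have different quartiles, so levels are read within each side of the grey line; Axin2 lacks the split of the siRNA arrays seen in the other 8 genes, which is smallest in Ctnnb1.

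With those 2 arrays left out, 6 Wnt genes were lower with siRNA-140 (replicates 1 and 2) than with siRNA-96 (replicates 2 and 3) and passed limma both in a fit of the remaining 10 arrays and in a fit of the 4 siRNA arrays alone. They were Fzd4, Fzd5, Fzd8, Gsk3b, Sfrp1 and Sfrp2. No member passed both on the higher side. The 6 of 41 compare with 2.38% of all genes called lower in both, and the 0 with 2.44% called higher. The choice of these arrays rested on their profile, the 41 Wnt genes included, in which the remaining groups then differ. The p-values therefore cannot stand as separate support for a response to miR-140. The 8 measured interferon response genes were also called lower in the 10-array fit, 8 of 8, beside 4.85% of all genes. That list had helped to set the 2 arrays apart, so its count follows from the choice and is not a separate result. The part of that response, and of the 18S signal, in the Wnt values was not tested.

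In the 10-array fit the largest log2 differences were -1.02 ± 0.11 (SE) for Sfrp1 (limma adjusted p = 7.07e-05, and 0.00358 with 4 arrays) and -1.02 ± 0.14 for Fzd5 (0.00042 and 0.00835). Sfrp2 differed by -1.01 ± 0.18 (limma adjusted p = 0.00257, and 0.0174 with 4 arrays) and Fzd4 by -0.90 ± 0.11 (0.000177 and 0.00594). Gsk3b differed by -0.78 ± 0.12 (limma adjusted p = 0.00103, and 0.0131 with 4 arrays) and Fzd8 by -0.68 ± 0.11 (0.00132 and 0.0275). From the fit of all arrays as labelled, 14 of 16 alternatives did not call Sfrp1, Fzd5, Fzd4, Gsk3b or Fzd8. For Sfrp2, 13 of 15 did not. The alternatives to the 10-array fit all left out siRNA-140 replicate 3 and siRNA-96 replicate 1. They repeat that choice of arrays, so they cannot show that the differences hold without it. Over them the log2 difference ran from -1.10 to -0.477 for Sfrp1, from -1.235 to -0.6225 for Fzd5 and from -1.32 to -0.71 for Sfrp2. It ran from -0.9465 to -0.56 for Fzd4, from -0.846 to -0.308 for Gsk3b and from -0.735 to -0.615 for Fzd8. Still without these arrays, the differences were smaller when all probe sets of a gene were averaged, and stayed called. They were then -0.48 for Sfrp1, -0.31 for Gsk3b, -0.62 for Fzd5 and -0.56 for Fzd4.

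Further Frizzled genes passed with 10 arrays and missed with 4. The 10-array fit takes its error also from the anti-miR arrays, in which most members varied less. Fzd2 differed by -0.67 ± 0.13 (limma adjusted p = 0.00422 with 10 arrays and 0.052 with 4), Fzd7 by -0.40 ± 0.11 (0.0305 and 0.188) and Fzd1 by -0.39 ± 0.11 (0.0402 and 0.233). With all 6 siRNA arrays Fzd7 differed by -0.12 ± 0.17 and Fzd1 by -0.07 ± 0.20. Fzd3 (0.17 ± 0.11) and Fzd6 (0.24 ± 0.15) did not pass, nor did the co-receptor genes Lrp5 (0.23 ± 0.16) and Lrp6 (0.12 ± 0.10). Of the 11 receptors, 6 were thus called lower with 10 arrays and 0 higher. Over all 41 members the 10-array fit called 9 lower and 1 higher, against 4.85% and 6.27% of all genes. The higher member was the ligand gene Wnt10b, at 4.28, 4.18 and 3.82 in the siRNA-140 arrays against 4.03, 3.82 and 3.78 in the siRNA-96 arrays. It differed by 0.22 ± 0.15 with all 6 arrays and by 0.43 ± 0.12 without the 2 (limma adjusted p = 0.039 with 10 arrays and 0.153 with 4), and it was called in 3 of 10 alternatives to that fit.

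**Figure D3:**
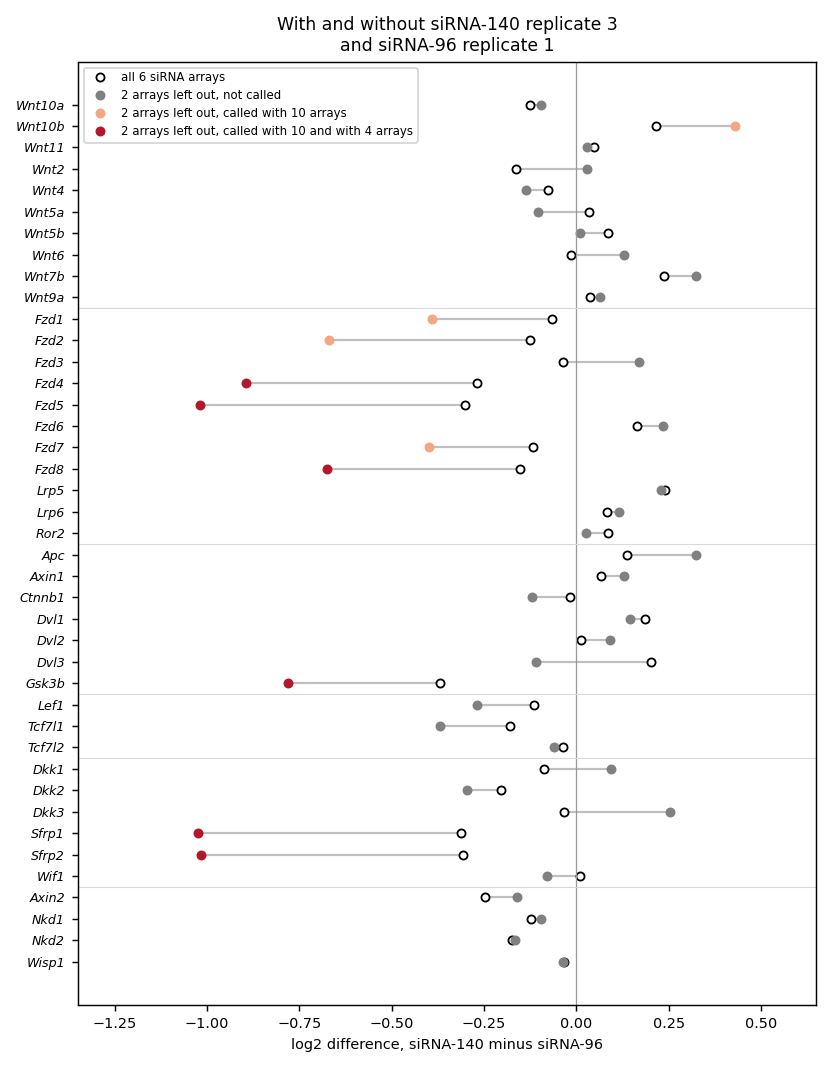
Open circles give the log2 difference (siRNA-140 minus siRNA-96) of each gene over all 6 siRNA arrays and filled circles that with the third siRNA-140 and first siRNA-96 replicate left out, coloured by the limma call. The 6 dark red genes moved from between -0.37 and -0.15 to between -1.02 and -0.68, while the 4 target and feedback genes lay between -0.25 and -0.03 in both settings.

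Other probe sets of these genes did not all follow. For Sfrp1, the other probe sets gave -0.65 (limma adjusted p = 0.0150 with 10 arrays), -0.37, -0.23 and -0.12, of which 1 passed. For Gsk3b they gave -0.48 (limma adjusted p = 0.00976), -0.30, -0.19, -0.08 and -0.03, of which 1 passed. The other Fzd5 probe set, dimmer, gave -0.23 and did not pass (limma adjusted p = 0.261). Fzd4 had one at -0.59 that passed with 10 arrays (limma adjusted p = 0.00815) and a dim one at -0.20 that did not. The dim second Fzd8 probe set passed in both fits at -0.79, and Fzd2 had one that passed in both at -0.92. The other Fzd1 probe set passed in both at -0.83 (limma adjusted p = 0.0071 with 10 arrays and 0.0224 with 4), and that of Fzd7 passed with 10 arrays at -0.44 (0.0151 and 0.147). One of Lrp6 was higher with 10 arrays, at 0.51 (limma adjusted p = 0.0428, and 0.18 with 4). Sfrp2 has 1 probe set. Over all members, 9 of 57 other probe sets were called lower and 3 higher in the 10-array fit. Of all probe sets tested, 8.98% were called in that fit, both directions together.

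Between the receptor and the nucleus, 1 of the 7 transducers, Gsk3b, passed by the probe set used for each gene. Ctnnb1, which encodes beta-catenin, had log2 levels of 11.76, 11.62 and 11.78 in the siRNA-140 arrays against 11.59, 11.84 and 11.78 in the siRNA-96 arrays. It differed by -0.02 ± 0.11 with all 6 arrays (95% interval -0.28 to 0.24) and by -0.12 ± 0.10 in the 10-array fit (interval -0.35 to 0.11). In Ctnnb1 the same arrays were low and high as in Fzd4, over a range of 0.25, but the split lay only between 11.76 and 11.78. Another Ctnnb1 probe set lacked it, with siRNA-140 replicate 2 at 9.79 and siRNA-96 replicate 3 at 9.54. Apc, a scaffold of the destruction complex, gave 0.14 ± 0.16 with all 6 arrays and 0.33 ± 0.13 in the 10-array fit (limma adjusted p = 0.175). Of its dimmer probe sets, one was higher in both fits, at 0.70 (limma adjusted p = 0.0038 with 10 arrays and 0.0305 with 4), one was higher with 10 arrays at 0.56 (0.0266 and 0.0983), and one gave 0.06 and did not pass. In the 10-array fit the Dishevelled genes gave 0.14 ± 0.10 (Dvl1), 0.09 ± 0.10 (Dvl2) and -0.11 ± 0.11 (Dvl3).

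Among the nuclear factors 0 of 3 measured genes passed in the 10-array fit. Tcf7l1, a Tcf factor that mostly represses targets, read 8.41, 8.32 and 8.62 in the siRNA-140 arrays against 8.42, 8.68 and 8.79 in the siRNA-96 arrays. It differed by -0.18 ± 0.14 with all 6 arrays and by -0.37 ± 0.11 with 10 (limma adjusted p = 0.0518, and 0.239 with 4), and its other probe set gave -0.54 and passed with 10 arrays (limma adjusted p = 0.00559). None of the 4 target and feedback genes passed: Axin2 gave -0.16 ± 0.13, Nkd1 -0.10 ± 0.17, Nkd2 -0.17 ± 0.14 and Wisp1 -0.04 ± 0.11 in the 10-array fit. Wisp1, a secreted matricellular protein induced by Wnt1, read 8.08, 8.27 and 8.16 in the siRNA-140 arrays against 8.19, 8.13 and 8.29 in the siRNA-96 arrays, so the groups lay over each other.

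The ligand genes were dim. Their means over the 12 arrays ran from 2.93 to 5.89, and 5 of 10 lay below the median of all probe sets. Wnt7b, the ligand gene with the brightest probe set, read 5.98, 6.28 and 5.66 in the siRNA-140 arrays against 5.60, 5.67 and 5.94 in the siRNA-96 arrays, a log2 difference of 0.24 ± 0.17. The groups overlapped, and in the 10-array fit the difference was 0.33 ± 0.15 (limma adjusted p = 0.236). The 10-array differences of the other ligand genes than Wnt10b and Wnt7b ran from -0.14 (Wnt4) to 0.13 (Wnt6). Of the 6 secreted inhibitors, 5 were below the median probe set, Sfrp2 among them, and Dkk1, Dkk2, Dkk3 and Wif1 did not pass (10-array log2 differences from -0.30 to 0.26).

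No Wnt gene passed the test with the oligonucleotide against miR-140. How far miR-140 was blocked in these cells is not shown by the values used here. limma called 0 of 41 between anti-miR-140 and anti-miR-449, over a background of 0% of genes. At an unadjusted p under 0.05 it called 1 of 41, against 3.47% of all genes. The log2 differences ran from -0.22 (Sfrp1) to 0.21 (Sfrp2), with a median of -0.03 against 0.00 over all genes. In sign, 27 of 41 were lower with anti-miR-140, where 51.6% of all genes were lower.

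Sfrp1 was the gene at the unadjusted threshold. It read 5.33, 5.42 and 5.33 in the anti-miR-140 arrays against 5.58, 5.67 and 5.50 in the anti-miR-449 arrays, so that all anti-miR-140 arrays were lower. The log2 difference was -0.22 ± 0.08 (95% interval -0.40 to -0.05; limma adjusted p = 0.974). Its other probe sets gave 0.07, -0.10, 0.09 and -0.09. Nkd1, a feedback inhibitor that acts on Dishevelled, was the other member that lay apart on the lower side, with 4.74, 4.59 and 4.70 against 4.76, 4.75 and 4.95 (log2 difference -0.14 ± 0.08). The 2 of 41 stand beside 4.42% of all genes. Dvl2, named here after its values were seen, lay apart on the higher side (0.08 ± 0.07); 1 of 41 stands beside 3.29%. The remaining members with the smallest p were Lrp5 (-0.16 ± 0.10) on the lower side and Sfrp2 (0.21 ± 0.11), Fzd3 (0.17 ± 0.09) and Wnt9a (0.15 ± 0.11) on the higher side. Sfrp2 read 4.15, 4.29 and 3.97 in the anti-miR-140 arrays against 3.78, 4.04 and 3.97 in the anti-miR-449 arrays, so the groups overlapped.

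Of the 6 genes called in both siRNA fits, Sfrp2 and Gsk3b had within-group SDs above the members' median in this experiment, at 0.148 and 0.119, and the other 4 lay below it, between 0.0684 and 0.0922. Fzd4 read 7.35, 7.27 and 7.22 in the anti-miR-140 arrays against 7.25, 7.44 and 7.45 in the anti-miR-449 arrays, a log2 difference of -0.10 ± 0.08 (95% interval -0.29 to 0.09). Fzd5 read 5.82, 5.81 and 5.70 against 5.91, 5.69 and 5.80, a difference of -0.02 ± 0.08 (interval -0.21 to 0.16). Fzd2 read 10.32, 10.32 and 10.31 against 10.34, 10.32 and 10.23, a difference of 0.02 ± 0.07 (interval -0.14 to 0.18). Ctnnb1 read 11.97 to 12.08 against 11.94 to 12.04, a difference of 0.04 ± 0.07 (interval -0.12 to 0.20). The groups overlapped in all 4.

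**Figure D4:**
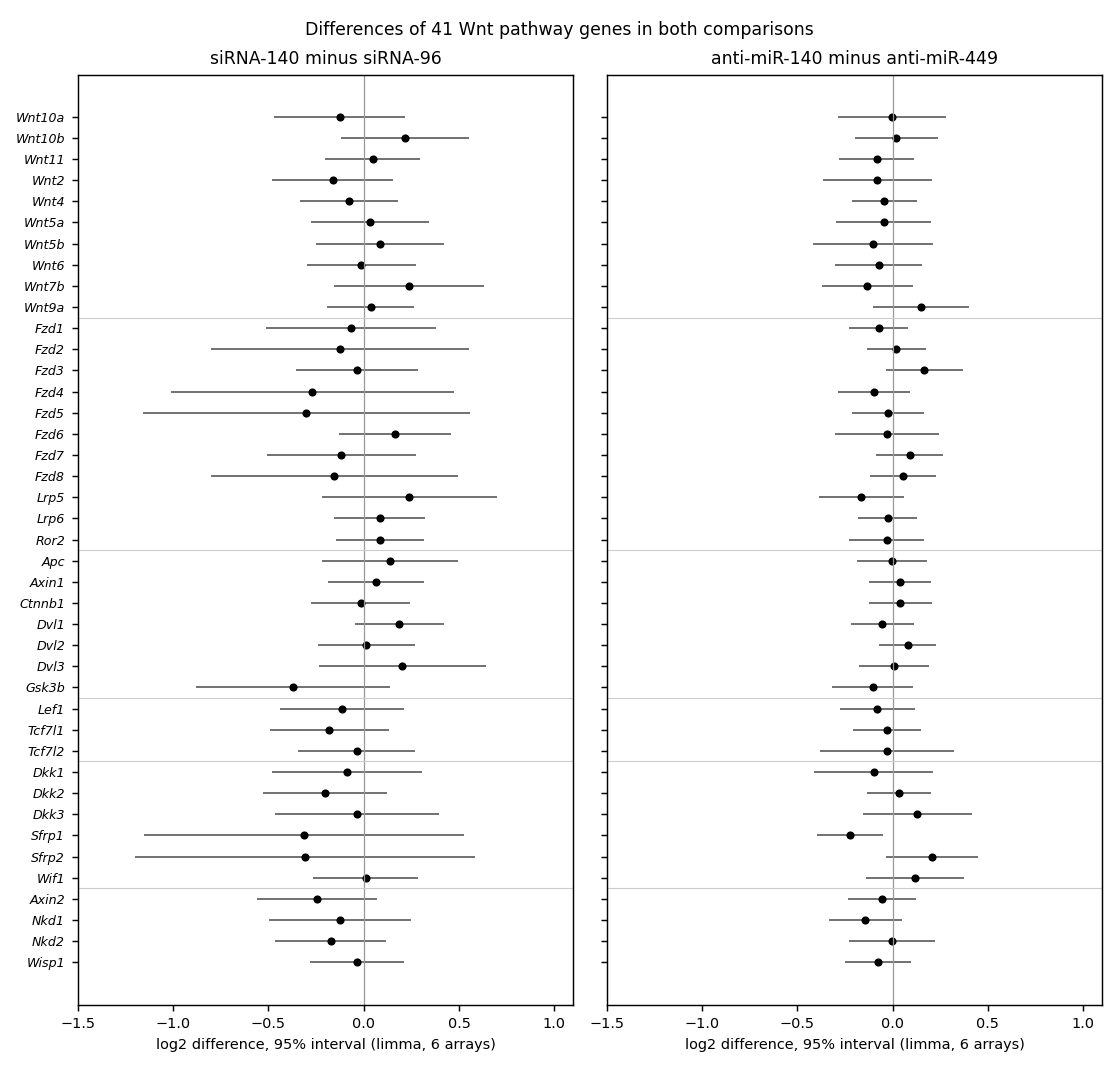
Points are limma log2 differences of the 41 genes and lines their 95% intervals, for siRNA-140 minus siRNA-96 (left) and anti-miR-140 minus anti-miR-449 (right), each from the 6 arrays compared. Intervals are wider on the left for 39 of the 41 genes, and on the right that of Sfrp1 (-0.40 to -0.05) lies off 0 before adjustment.

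The siRNA comparison minus the anti-miR comparison departs from 0 where the log2 differences of the 2 are unequal, opposite changes included. It also carries the effects of both control reagents. With all 12 arrays limma called 0 of 41 members, over 0% of genes, and 0 of 41 at an unadjusted p under 0.05, against 2.35% of all genes. The smallest p among the members were those of Dvl1 (0.24 ± 0.12), Wnt7b (0.37 ± 0.21) and Lrp5 (0.40 ± 0.24) on the higher side and Dkk2 (-0.24 ± 0.16), Fzd3 (-0.20 ± 0.17) and Axin2 (-0.19 ± 0.16) on the lower side. With the same 2 siRNA arrays left out, 7 of 41 were called lower, against 2.74% of all genes, and 0 higher, against 3%. They were Fzd2, Fzd4, Fzd5, Fzd8, Gsk3b, Sfrp1 and Sfrp2. The difference of the log2 differences was -1.22 ± 0.23 for Sfrp2 (95% interval -1.71 to -0.73, limma adjusted p = 0.00795) and -0.80 ± 0.14 for Sfrp1 (interval -1.11 to -0.49, limma adjusted p = 0.00591). These p-values are not separate support either, since the 2 arrays were left out for a profile that includes these genes.

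Of 79 other Wnt pathway genes listed, 78 were measured, and they were read in the same way. limma called 0 of 78 in each comparison with all arrays. At an unadjusted p under 0.05 there was 1 of 78 between siRNA-140 and siRNA-96, Frzb, another secreted Frizzled-related protein, which differed by -0.29 ± 0.11 and, in the 10-array fit, by -0.34 ± 0.16 (limma adjusted p = 0.276). There were 2 of 78 between anti-miR-140 and anti-miR-449, the planar polarity gene Prickle2 (-0.28 ± 0.08) and the Wnt target Tnfrsf19 (-0.18 ± 0.07). Without the 2 siRNA arrays, 7 of 78 were called lower and 1 higher in both the 10-array and the 4-array fit, against 2.38% and 2.44% of all genes.

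The R-spondins raise Wnt signalling by keeping Frizzled receptors on the cell surface. Rspo3 had log2 levels of 4.52, 4.27 and 5.82 in the siRNA-140 arrays against 4.15, 6.15 and 5.72 in the siRNA-96 arrays, and differed by -1.54 ± 0.18 in the 10-array fit (limma adjusted p = 0.000127, and 0.000987 with 4 arrays). Rspo2 read 8.87, 9.03 and 10.15 in the siRNA-140 arrays against 8.88, 10.16 and 10.28 in the siRNA-96 arrays, and differed by -1.27 ± 0.11 (limma adjusted p = 1.24e-05, and 0.000987 with 4 arrays). In both, siRNA-140 replicate 3 was high and siRNA-96 replicate 1 low, as in Fzd4 and Sfrp1. Ror1, a receptor for Wnt5a, differed by -1.47 ± 0.17 (limma adjusted p = 0.000125) and Bambi, a decoy receptor of the TGF-beta family, by -1.01 ± 0.11 (9.25e-05). With all 6 siRNA arrays these differences were -0.47 ± 0.54 for Rspo3, -0.42 ± 0.43 for Rspo2, -0.44 ± 0.53 for Ror1 and -0.39 ± 0.32 for Bambi. The 1 higher gene, named after its values were seen, was Daam1, which links Dishevelled to the actin cytoskeleton (0.93 ± 0.14 in the 10-array fit, limma adjusted p = 0.000937, and 0.38 ± 0.29 with all 6 siRNA arrays). In the anti-miR comparison these 5 genes differed by -0.09 to 0.09. Their siRNA p-values are not separate support, since the genes were named from a fit whose 2 missing arrays were chosen by profile.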

How the data were processed

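The deposited values are log2 expression values, 1 per probe set. They came from RMA, per the submitters' processing notes. The version and the probe set definition are not given in the sources used here. Quartiles of the arrays lay apart between the siRNA and the anti-miR arrays, so levels were not tested between them. Of 45101 probe sets, 64 array controls were left out and 45037 tested with no filter. Genes were named from the platform annotation, by probe sets with 1 symbol. limma 3.58.1 (lmFit and eBayes; R 4.3.3) was run for each comparison on its 6 arrays, since the spread differed between the experiments, and the difference between comparisons on all 12. Adjusted p-values are Benjamini-Hochberg values over all 45037 probe sets, and called means under 0.05. Intervals are 95% intervals. The scripts were tested on simulated data.

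The members and lists, with their markers and motifs, were chosen with earlier results of these data known. Genes were named by a rule: the brightest member of each role, any called member (also in both fits that leave out the 2 siRNA arrays that stood apart), and the 3 with the smallest p each way; for the other Wnt genes, up to 4 with the largest called difference or the smallest p. A 2-decimal precision of the deposited values limits small differences. Alternatives were other fits, scalings, filters, array weights, probe set means, a replicate block and arrays left out.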

Additional observations from a re-analysis of the deposited data

How the results depend on the processing

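With all arrays, 0 of 41 Wnt genes were called in each comparison, and this held under every other fit, scaling, filter, weighting and replicate block tried, and with any 1 array left out (0 to 0). The exception was leaving out siRNA-140 replicate 3 and siRNA-96 replicate 1 together. That gave 10 called members of 41 for siRNA-140 against siRNA-96 with 10 arrays, beside 11.1% of all genes. With the 4 siRNA arrays alone it gave 6, beside 4.83%. The 4-array fit has fewer arrays and takes its error from the siRNA arrays only. For the difference between the comparisons 7 members were called, all lower, against 2.74% of all genes called lower. From that 10-array setting, the alternatives added after seeing the data gave 10 to 13 called members. The share of all genes called under each of these is not given here, so that range stands without a background. Median centring moved the median difference by under 0.01 and changed no called sign.

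The replicate block called 0 members in all 3 comparisons. The labels do not say whether arrays with the same replicate number were handled together. The correlation of same-numbered deviations over probe sets was 0.41, -0.24 and 0.44 in the siRNA arrays and -0.01, 0.10 and -0.03 in the anti-miR arrays. These values do not settle it.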
